A study of Mus musculus with 16 samples.

Results

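The pigment epithelium and melanocyte genes described here are 10 genes, Rpe65, Lrat, Rgr, Rdh5, Best1, Ttr, Mlana, Tyr, Tyrp1 and Dct. They were chosen by symbol from knowledge of the tissue, with earlier results of these data known. All 10 were found among the 25905 genes of the deposited comparison and of the count table. RNA sequencing was performed on right-eye retinas of 8 spaceflight and 8 ground control mice, which were wild type male C57BL/6 animals, 10 weeks old per the labels, with 100 ng of total RNA per library. Spaceflight mice lived in the rodent habitats of the International Space Station and came back alive, and ground control mice were kept on Earth in the same hardware on the same food bars. Eyes were collected after landing, so the return to Earth is part of the spaceflight group. The labelled age is that of the animals sent on the flight, so the spaceflight mice were older when their eyes were collected. The comparison of the groups was taken from the deposited DESeq2 table, which gives each gene a mean normalized count over all 16 libraries and a log2 fold-change, positive where spaceflight is higher. The counts of each library were deposited in 16 columns with laboratory codes that no label ties to a mouse or a group. These columns are called library 1 to library 16 in their order in the table, and they were used for the spread and the co-variation of the genes over libraries, with no library placed in a group.

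The retinal pigment epithelium is a layer of pigmented cells behind the photoreceptors, outside the neural retina. It turns the all-trans retinoid released by bleached visual pigment back into the 11-cis form, moves retinoids, ions and water, and holds melanin. Melanin is also made by the melanocytes of the choroid, the vascular layer behind the pigment epithelium, and the iris and ciliary body carry pigmented cells as well. A dissected retina can carry some of these layers with it, and the sources used here do not say how much of the pigment epithelium came with each retina.

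Library totals ran from 5331518 to 8568052 counts assigned to genes. The retina label was met in every library, with normalized counts of Gnat1, the transducin subunit of rods, between 119196 and 188811. Library 2 stood apart by its lens genes. The summed normalized counts of 9 lens genes were 107042 in library 2, against a median of 1018 over the 16 libraries. Library 4 stood apart by its striated muscle genes, with a sum over 6 genes of 2209 against a median of 23.4. Both libraries were also among the highest for members of the set, so the co-variation is given with and without library 2 below.

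The deposited DESeq2 comparison gave no change past an adjusted p-value of 0.1 for any member that was tested. Best1 was below the filter on abundance and had no adjusted p-value, which left 9 tested members. Of these, 0 passed the threshold and 0 had an unadjusted p-value under 0.05, while 5.62% of the 10669 tested genes of the series passed it. The 5 tested retinoid and transport genes (Rpe65, Lrat, Rgr, Rdh5 and Ttr) had log2 fold-changes below 0, and the 4 melanin genes lay on both sides of 0. These 5 genes were strongly correlated over libraries (Spearman's rho from 0.81 to 0.96), so their shared sign is not 5 independent results. In bulk RNA, fewer cells of a type and less RNA per cell cannot be told apart, so these values apply to the amount of transcript in the dissected tissue.

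Lrat, which esterifies retinol for storage, had the smallest p-value of the set. Its log2 fold-change was -0.61 with a standard error of 0.42 (n = 8 per group, unadjusted p = 0.149 and adjusted p = 0.551 in the deposited DESeq2 Wald test). The 95% interval reached from -1.44 to 0.22, that is from 0.367 to 1.16 times the ground control level. Rpe65, the isomerase of the visual cycle, had a log2 fold-change of -0.32 (interval -1.18 to 0.53). Ttr, the carrier of thyroxine and of retinol with its binding protein, had one of -0.36 (interval -1.17 to 0.44). Rdh5, an 11-cis retinol dehydrogenase, had -0.30 (interval -1.14 to 0.54). Rgr, an opsin of the pigment epithelium and Müller glia, had -0.15 (interval -0.97 to 0.67). All 5 intervals held 0.

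The melanin genes were measured with wider intervals. The log2 fold-change of Tyr, the tyrosinase that starts melanin synthesis, was 0.01 with an interval from -1.31 to 1.33. Tyrp1, a further enzyme of the eumelanin pathway, had 0.31 (interval -1.37 to 2.00). Dct, dopachrome tautomerase, had -0.06 (interval -1.75 to 1.63). Mlana, a melanosome protein of pigment cells, had 0.24 (interval -1.84 to 2.32). The interval of Dct spans levels from 0.298 to 3.10 times those of the ground control group, so its error covers both a large fall and a large rise. Best1, the chloride channel bestrophin of the pigment epithelium, had a log2 fold-change of 0.47 with an interval from -1.30 to 2.24, at a mean normalized count of 2.72.

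**Figure D1:**
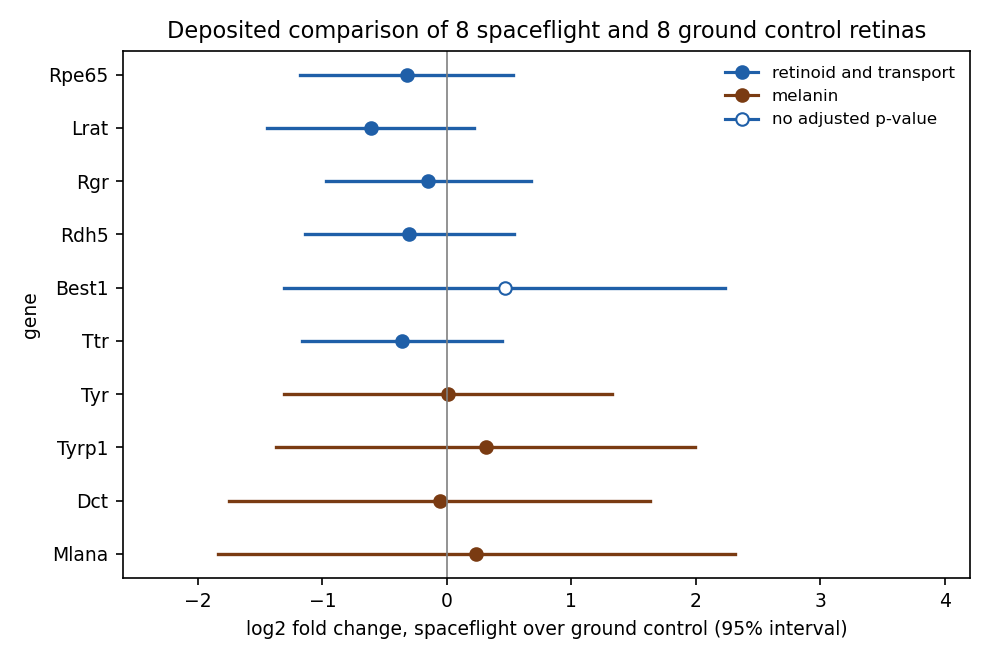
Log2 fold-change between spaceflight and ground control, positive where spaceflight is higher (horizontal axis) for the 10 genes (vertical axis), with points for the deposited estimates and bars for 95% intervals from their standard errors (n = 8 mice per group). All 10 bars cross 0, the 5 abundant retinoid and transport genes (blue) have shorter bars than the melanin genes (brown), and the open point with a longer bar is Best1, which has no adjusted p-value.

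The precision of these genes was low for their abundance. The standard errors of the 9 tested members ran from 0.41 for Ttr to 1.06 for Mlana on the log2 scale, and the median over all tested genes was 0.08. A standard error above that of Ttr was found for 85 of the 10669 tested genes, or 0.797%, the other 8 tested members included. With these errors, the estimated change needed to pass the threshold was 2.20-fold for Ttr, 2.31-fold for Rpe65, 3.63-fold for Tyr, 5.23-fold for Dct and 7.66-fold for Mlana. A smaller estimate would not have passed, and the power to detect a true change of a given size was not computed.

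**Figure D2:**
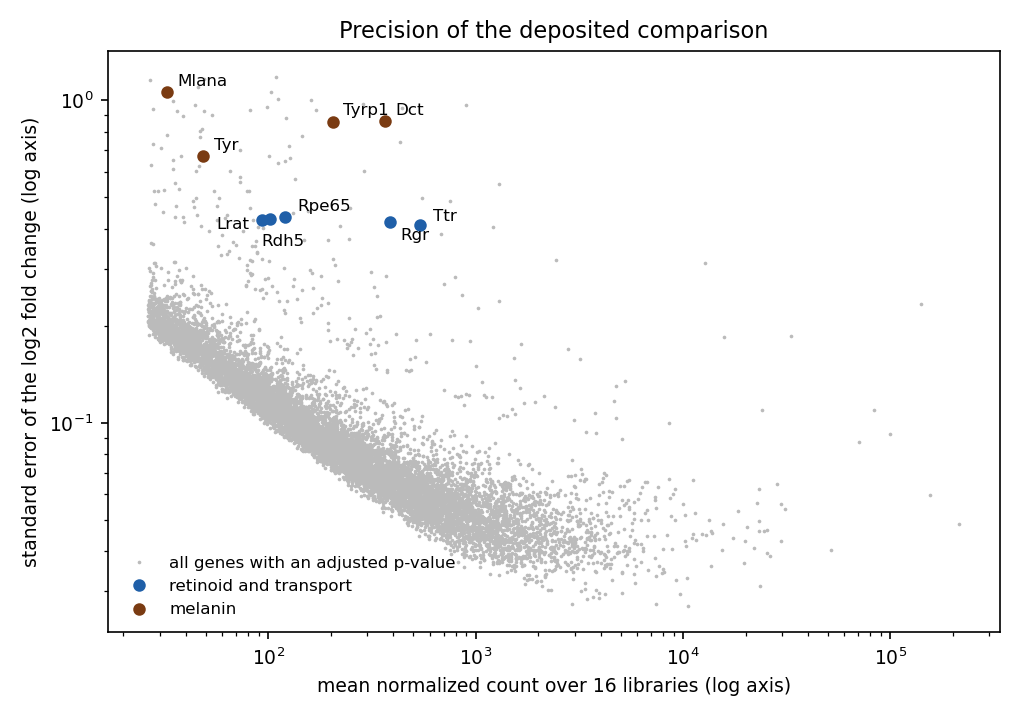
Standard error of the deposited log2 fold-change (vertical log axis) against the mean normalized count (horizontal log axis) for 10669 tested genes (grey points) and the 9 tested members (blue, retinoid and transport; brown, melanin). The members lie above the grey band at their abundance, between 0.41 for Ttr and 1.06 for Mlana, and the median over all tested genes is 0.08.

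The retinoid and transport genes were detected in every library except for Best1. Counts were divided by a size factor for each library (0.781 to 1.21) and are called normalized counts. Rpe65 ran from 41.6 in library 1 over a median of 103 to 353 in library 2, an 8.49-fold range. Lrat ran from 34.7 over a median of 65.2 to 299, with the same lowest and highest library. Rdh5 ran from 29.8 in library 16 over a median of 82.9 to 287 in library 2. The more abundant Rgr ran from 116 over a median of 313 to 1166, and Ttr from 213 over a median of 388 to 1735, again from library 1 to library 2. Library 2 was the highest library for all 5 genes, library 8 was the next one, and library 1 or library 16 was the lowest. Without library 2, the highest values were 195 for Rpe65, 208 for Lrat, 655 for Rgr, 200.2 for Rdh5 and 869 for Ttr.

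Best1 was at the limit of detection. Its counts were 0 in 5 of the 16 libraries, at most 3 in 9 more, 10 in library 10 and 11 in library 13. A count of 0 allows up to 3 counts, which is 2.48 to 3.84 normalized counts depending on the library, and this floor covers counting error alone. The libraries with the highest Best1 were not those with the highest Rpe65, and its Spearman's rho with the other 9 members lay between -0.37 and 0.09.

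The coefficient of variation over the 16 libraries ranged from 64.9% for Rdh5 to 74.5% for Lrat in the 5 abundant genes of this group. Over the 12423 genes with a mean normalized count of at least 10, the median coefficient was 12.6%, and 2.09% of these genes had one above that of Rdh5. Counting error made up 0.390% of the squared coefficient in Ttr and 2.34% in Rdh5, if each read is taken as an independent draw. Without library 2 the coefficients fell to 43.6% for Ttr and 55.3% for Lrat, and library 2 thus supplied a part of them.

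The melanin genes varied more. Dct ran from 29.6 in library 5 over a median of 149 to 1383 in library 10, a 46.7-fold range. Tyrp1 ran from 9.02 in library 16 over a median of 111 to 757 in library 10, an 84.0-fold range. Tyr ran from 9.01 in library 15 over a median of 21.6 to 148 in library 10. Mlana was at 0 counts in library 5, had a median of 15.5 and reached 113 in library 10. Libraries 10, 4, 2 and 12 were the 4 highest ones for Dct and Tyrp1, and libraries 1, 3, 5, 7 and 16 held at most 55.4 normalized counts of Dct. The coefficients of variation were 96.0% for Tyr, 119% for Tyrp1 and Dct and 126% for Mlana. They did not drop without library 2, at 102% for Tyr and 138% for Mlana.

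**Figure D3:**
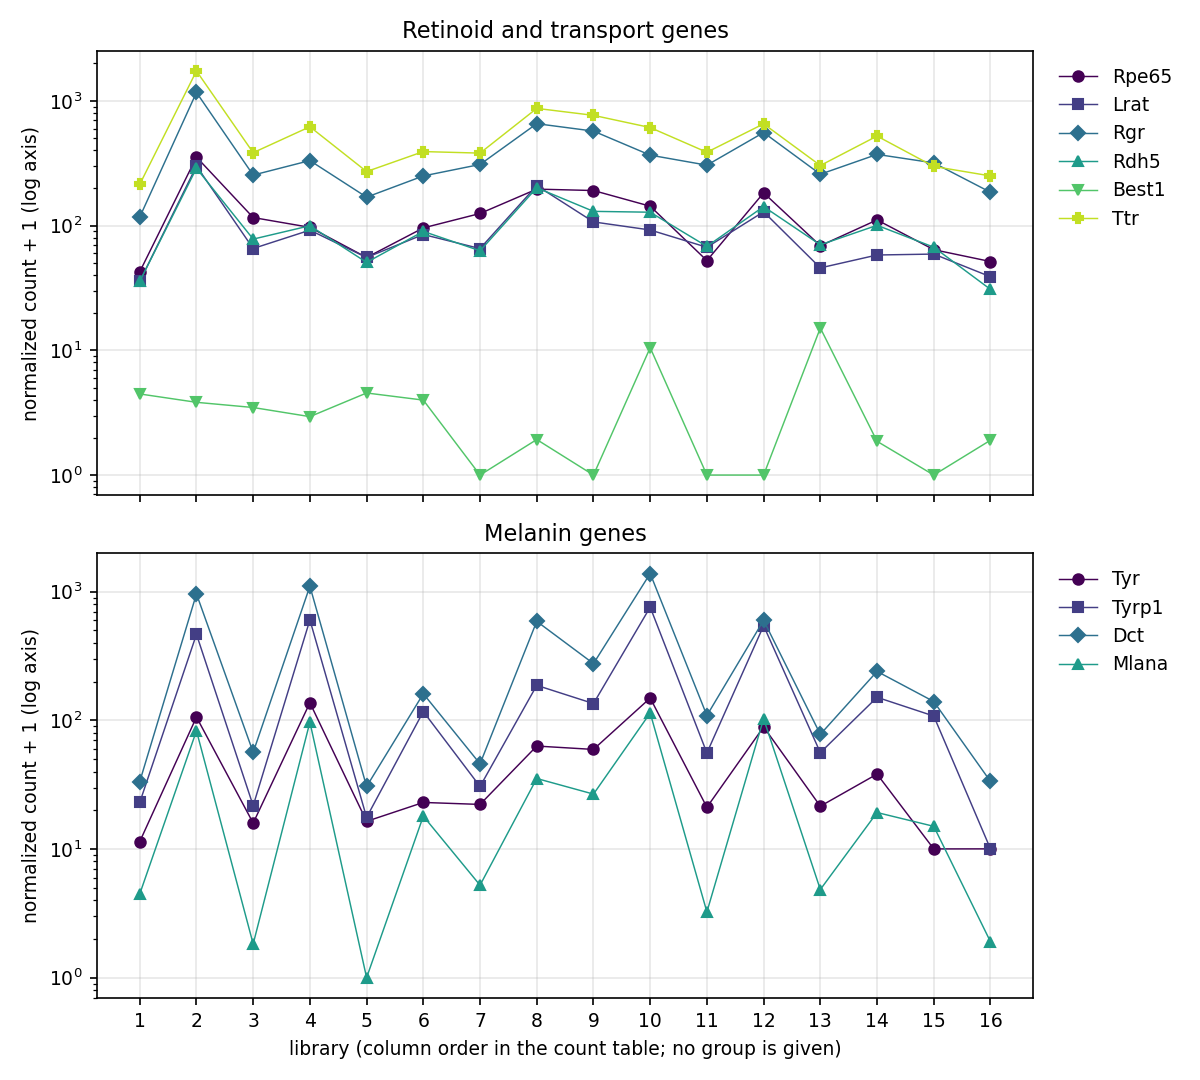
Normalized count plus 1 (vertical log axis) of the 6 retinoid and transport genes (upper panel) and the 4 melanin genes (lower panel) in each of the 16 libraries (horizontal axis, in column order). Lines join the points of a gene and stand for no order among the libraries. The 5 abundant upper genes rise and fall together with their peak in library 2, Best1 does not follow them, and the melanin genes are high in libraries 10, 4, 2 and 12.

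Sequences around the starts of the members were searched for short motifs, and those before the starts of the 3 melanin enzymes are printed. RefSeq promoter sequences of the mouse assembly GRCm38.p6, from 250 bases before to 50 bases after each start, matched 8 of the 10 members by symbol, without Mlana and Ttr. The M-box TCATGTG, the extended E-box that the melanocyte factor MITF is known to bind, was searched on both strands and was present in Tyr, Tyrp1 and Dct. It was present in 3.77% of all 32851 promoter sequences of that length, and in none of the other 5 matched members. The 250 bases before each start are printed 5′ to 3′ on the gene's strand, with capitals for TCATGTG, for GGATTA and for their reverse complements CACATGA and TAATCC. Tyr lies at chr7:87493513-87493762 (minus strand), Tyrp1 at chr4:80833963-80834212 (plus strand) and Dct at chr14:118052247-118052496 (minus strand).
Tyr: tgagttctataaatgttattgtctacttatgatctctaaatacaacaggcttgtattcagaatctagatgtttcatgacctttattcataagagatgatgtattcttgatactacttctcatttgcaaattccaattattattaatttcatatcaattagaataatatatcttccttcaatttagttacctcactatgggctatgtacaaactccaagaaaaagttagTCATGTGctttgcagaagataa
Tyrp1: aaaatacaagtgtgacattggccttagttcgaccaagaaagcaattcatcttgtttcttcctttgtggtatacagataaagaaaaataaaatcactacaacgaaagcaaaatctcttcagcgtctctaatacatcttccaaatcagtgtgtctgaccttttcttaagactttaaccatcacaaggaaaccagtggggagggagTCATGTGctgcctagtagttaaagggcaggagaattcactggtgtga
Dct: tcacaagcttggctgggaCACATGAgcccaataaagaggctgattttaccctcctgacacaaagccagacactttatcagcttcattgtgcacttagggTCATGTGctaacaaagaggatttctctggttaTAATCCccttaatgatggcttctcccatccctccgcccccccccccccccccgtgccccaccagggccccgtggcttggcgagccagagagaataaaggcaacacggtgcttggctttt
The first base of the motif lies 22 bases before the start in Tyr, 47 in Tyrp1 and 151 in Dct, and Dct has a further copy on the opposite strand 232 bases before the start. A match is a run of letters and was not tested for binding in these retinas. Whether the M-box has a part in the co-variation of these transcripts over libraries was not tested.

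GGATTA, the core bound by OTX and CRX homeodomain factors of the pigment epithelium and photoreceptors, was in 5 of the 8 matched members (Rpe65, Rgr, Best1, Tyrp1 and Dct) and in 7.06% of all promoter sequences, on either strand. In Tyrp1 it lies after the start and so outside the bases printed above. The shorter CATGTG, which is contained in TCATGTG, was in Rpe65, Rgr, Tyr, Tyrp1 and Dct and in 14.2% of all sequences. The palindrome CACGTG was in 0 of the 8 and in 7.15% of all. Rpe65 and Rgr are printed in the same way, since they hold GGATTA without the M-box. Rpe65 lies at chr3:159598931-159599180 (plus strand) and Rgr at chr14:37049015-37049264 (minus strand).
Rpe65: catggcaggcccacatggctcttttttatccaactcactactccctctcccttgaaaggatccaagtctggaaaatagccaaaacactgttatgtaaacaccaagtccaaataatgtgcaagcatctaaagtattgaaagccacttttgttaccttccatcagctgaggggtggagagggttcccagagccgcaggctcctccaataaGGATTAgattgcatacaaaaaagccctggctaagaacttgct
Rgr: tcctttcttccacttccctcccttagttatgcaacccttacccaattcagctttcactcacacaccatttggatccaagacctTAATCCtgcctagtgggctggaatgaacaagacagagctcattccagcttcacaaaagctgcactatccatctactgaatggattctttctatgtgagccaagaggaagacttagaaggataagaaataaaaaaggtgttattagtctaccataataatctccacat
The motif starts 42 bases before the start of Rpe65 and, on the opposite strand, 167 bases before that of Rgr.

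All 9 members with a mean normalized count of at least 10 rose and fell together over the libraries. Of their 36 pairs, 36 had an adjusted p-value under 0.05 (two-sided permutation test of Spearman's rho with 100000 permutations, Benjamini-Hochberg over the 36 pairs), with a largest adjusted p of 0.00598. The median rho was 0.85, and that of Pearson's r on log2(normalized count + 1) was 0.84, with a largest adjusted p of 0.00486 in the permutation test. The smallest p-value the permutations can give is 1e-05. Since spaceflight and ground control libraries are mixed in these columns, any difference between the groups is part of each correlation. The libraries also share their preparation and sequencing, and the labels give no batch.

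Within the 5 retinoid and transport genes rho ran from 0.81 for Lrat and Rgr to 0.96 for Rdh5 and Ttr, over 10 pairs. Within the 4 melanin genes it ran from 0.87 for Tyr with Dct or Mlana to 0.97 for Tyrp1 with Dct or Mlana, over 6 pairs. Between the groups it ran from 0.67 for Rpe65 and Tyrp1 to 0.87 for Dct with Rdh5 or Ttr, with a median of 0.80 over 20 pairs. The median was 0.88 within the retinoid and transport genes and 0.91 within the melanin genes, and the difference between these medians was not tested. When the 2 libraries farthest from the median of a pair's first gene were left out, Pearson's r stayed between 0.59 and 0.97. Without library 2, rho was between 0.65 and 0.97 over the remaining 15 libraries, with a median of 0.83.

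**Figure D4:**
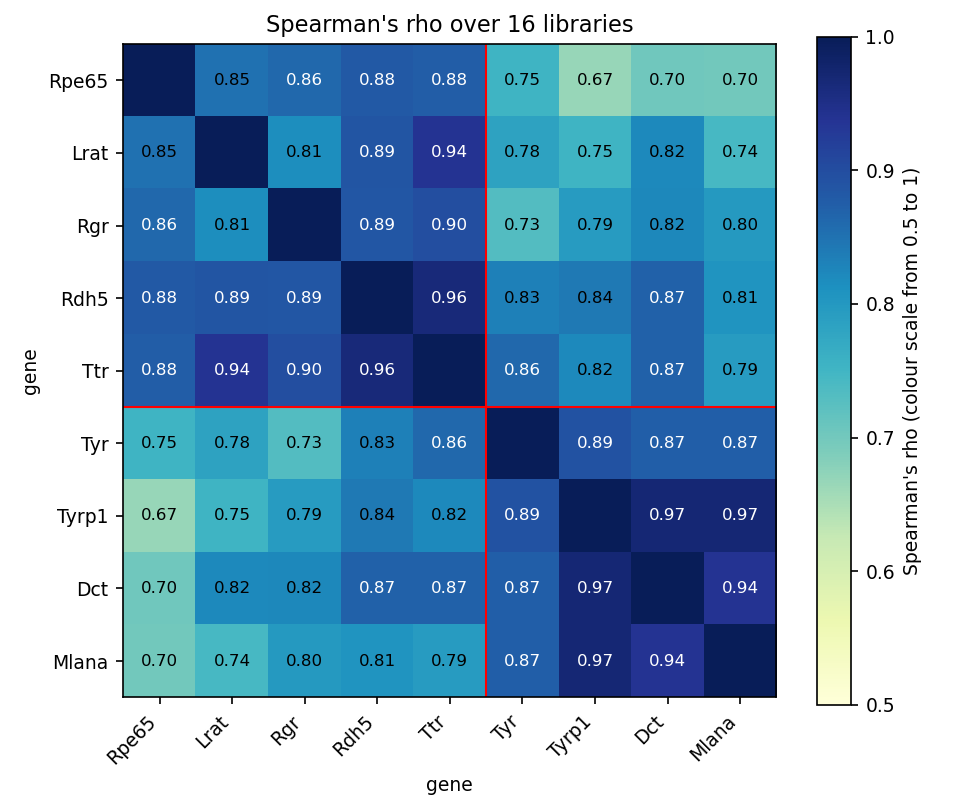
Spearman's rho between each pair of 9 members (both axes) over the 16 libraries, with the colour scale from 0.5 to 1. Red lines part the 5 retinoid and transport genes from the 4 melanin genes, and the palest cell, 0.67 for Rpe65 and Tyrp1, lies between the groups.

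Ratios between members differed in how far they ranged over libraries. The ratio of Ttr to Rdh5 ran from 4.34 to 8.36 over the libraries, a 1.93-fold range, while Ttr itself had an 8.16-fold range. Lrat, Rgr, Rdh5 and Ttr each kept a ratio to Rpe65 within a 2.44-fold to 2.69-fold range. The ratio of Tyrp1 to Dct ran from 0.278 to 0.908, a 3.27-fold range, and that of Tyr to Dct from 0.0647 to 0.520, an 8.03-fold range. The ratio of Tyr to Rpe65, across the groups, ran from 0.129 to 1.42. The ratio of Dct to Rpe65 ran from 0.363 in library 7 over a median of 1.90 to 11.5 in library 4, a 31.7-fold range. Library 4 held 95.8 normalized counts of Rpe65, near the median, and 1102 of Dct. Library 7 held 124 of Rpe65 and 44.9 of Dct, so that Dct differed by far more between these libraries than Rpe65 did.

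A score for each group was formed as the mean z score of log2(normalized count + 1) of its genes, in units of the SD over libraries. The scores had a Spearman's rho of 0.86 (permutation p = 3e-05) and a Pearson's r of 0.80 (permutation p = 0.00011) over the 16 libraries. Without libraries 2 and 8, which lie farthest from the median of the retinoid score, r was 0.82. Library 2 had the highest retinoid score and ranked 3 of 16 by the melanin score. Libraries 4 and 10 had retinoid scores of 0.19 and 0.44 and melanin scores of 1.39 and 1.52. The library totals had a rho of 0.32 with the retinoid score and 0.09 with the melanin score (adjusted p = 0.377 and 0.784, permutation test adjusted over 26 relations of the scores to marker lists and totals).

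**Figure D5:**
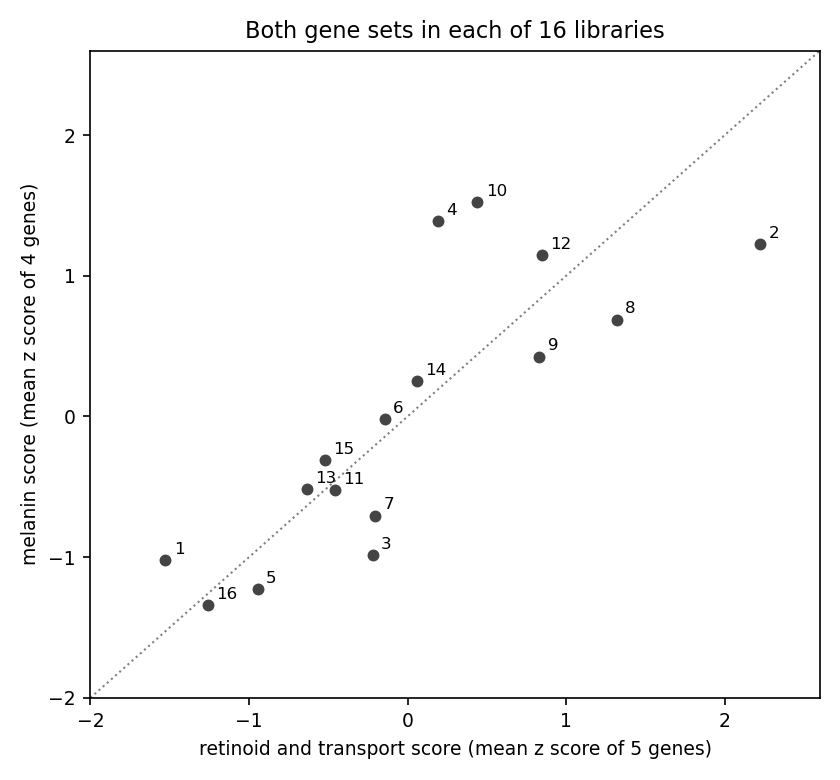
Melanin score (vertical axis) against the retinoid and transport score (horizontal axis), each the mean z score of its genes, for libraries 1 to 16 (numbered points). The dotted line marks equal scores, libraries 4 and 10 lie farthest above it, library 2 lies farthest below it, and the points form a band without separate clusters.

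Levels of different genes are compared per kb of transcript. Ttr was highest, with a mean normalized count of 455 per kb, followed by Dct (165), Rgr (91.0), Rdh5 (80.8), Tyrp1 (75.1), Rpe65 (64.8), Mlana (35.7), Lrat (17.4), Tyr (8.05) and Best1 (1.31). The ranges of neighbours in this order overlapped over libraries. Ttr exceeded Dct in 15 of 16 libraries, Lrat exceeded Tyr in 14 and Tyr exceeded Best1 in 15. Dct exceeded Rgr in 7 and Tyrp1 exceeded Rpe65 in 4 of 16, although their means were higher. Lengths were those of GENCODE M21 transcripts with the RefSeq accession that was counted.

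The genes most like the set were sought among 12414 other genes with a mean normalized count of at least 10, by Spearman's rho with the mean z score of the 9 members over the 16 libraries. A rho of at least 0.8 was found for 76 genes, or 0.612%. The 10 highest were Ermn (0.94), Slc13a3 (0.93), Pon1 (0.92), Ptgds (0.92), Mlph (0.91), Cpxm2 (0.91), Kcnj13 (0.91), Si (0.91), Islr (0.90) and Ucp2 (0.90). Si is an older symbol of Pmel, whose protein forms the fibrils on which melanin is laid down, and it ran from 9.92 over a median of 42.2 to 492 normalized counts in library 10. Mlph, melanophilin, which links melanosomes to myosin for their transport, ran from 1.16 over 8.82 to 80.7. Kcnj13, the potassium channel Kir7.1 of the pigment epithelium, ran from 5.92 over 27.8 to 92.3. Ptgds, prostaglandin D2 synthase, was the most abundant of the 10 and ran from 315 over 799 to 3458. In the deposited DESeq2 comparison, 7 of the 10 were tested, 0 passed the threshold, and 0 of the 10 had an unadjusted p-value under 0.05. Of the 76 genes, 56 were tested and 0 passed (0 with an unadjusted p-value under 0.05 among all 76). Among all tested genes 5.62% passed. The standard errors of the 10 ran from 0.31 for Ermn to 0.88 for Si, against a median of 0.08 over all tested genes. Like the members, they were thus measured with low precision.

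Further genes of the pigment epithelium were taken from a list of 29, of which 20 were tested. Of these, 1 rose and 1 fell in spaceflight, against 2.68% and 2.94% of all tested genes, and the median log2 fold-change was -0.03 against -0.0059 for all tested genes. Krt18, a keratin of simple epithelia, rose with a log2 fold-change of 0.29 (interval 0.10 to 0.49, adjusted p = 0.0736 in the deposited DESeq2 comparison). Cst3, the secreted protease inhibitor cystatin C, fell with a log2 fold-change of -0.28 (interval -0.39 to -0.17, adjusted p = 0.000118). An unadjusted p-value under 0.05 was found for 4 genes of the list, Krt18, Cst3, Serpinf1 and Rdh10. Serpinf1 had a log2 fold-change of -0.65 (interval -1.22 to -0.08) and Rdh10 one of -0.19 (interval -0.37 to -0.01). Neither passed the threshold (adjusted p = 0.243 and 0.303 in the deposited DESeq2 comparison). Over libraries, the rho with the retinoid score was 0.05 for Krt18 and 0.42 for Cst3. Cst3 was the most abundant gene of the list, ahead of Slc16a1 and Ctsd, whose log2 fold-changes were -0.05 and 0.01 (intervals -0.16 to 0.07 and -0.10 to 0.12). The rho of Slc16a1 and Ctsd with the retinoid score was -0.36 and 0.52, and the median over the list was 0.55. The summed level of the list had a median of 12852 normalized counts, where the medians of Cst3, Slc16a1 and Ctsd were 5332, 1666 and 1500. Which cells gave the transcripts of Krt18, Cst3 and the summed list was not tested. The summed level of the list had a rho of 0.73 and an r of 0.82 with the retinoid score (adjusted p = 0.012 and 0.00117, permutation test), and r was 0.60 without libraries 2 and 8. Of the 22 listed genes with a mean normalized count of at least 10, 4 had a rho of at least 0.8 with the retinoid score: Ermn, Slc16a8, Kcnj13 and Trf. The counting was per transcript, and reads that fit several transcripts were left out as ambiguous (at most 22.9% of the reads that fell in genes). The 8 listed genes with several transcript rows, Rlbp1 and Mitf among them, can therefore have values below their level, and Mfrp and C1qtnf5 are at 0 counts.

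Of 25 genes of the melanosome and its transport, 24 were found by symbol and 12 were tested. Si, the older symbol of Pmel, was not among the 24, so the counts, medians and summed level of this list leave it out. Si had a rho of 0.96 with the melanin score. Its log2 fold-change was 0.16 (interval -1.57 to 1.89), which did not pass the threshold. Of the 12 tested genes, 0 passed the threshold in the deposited DESeq2 comparison (1 with an unadjusted p-value under 0.05), where 5.62% of all tested genes did. Their median log2 fold-change was 0.09. Intervals were wide for some, such as Slc24a5 (-0.78 to 1.78) and Gpnmb (-1.46 to 0.90). They were narrow for others, such as Lyst (-0.05 to 0.14). Among the 18 listed genes found with a mean normalized count of at least 10, 5 had a rho of at least 0.8 with the melanin score. These were Mlph (0.91), Slc24a5 (0.90), Oca2 (0.84), Gpnmb (0.83) and Sox10 (0.81). The lowest rho was -0.64 for Mc1r, followed by -0.42 for Hps4. Kit and Hps5, each with several transcript rows, were at 0 counts. Slc24a5 and Oca2 are melanosomal transporters, Gpnmb is a melanosomal membrane protein and Sox10 is a transcription factor of melanocytes and other neural crest cells. Slc24a5 ran from 3.47 over a median of 26.7 to 111 normalized counts. The most abundant genes of the list, Myo5a, Lyst and Mreg, serve organelle transport in many cells, and their rho with the melanin score was -0.21, 0.09 and -0.14. The median rho over the list was 0.08, and its summed level had a rho of 0.47 and an r of 0.65 with the melanin score (adjusted p = 0.177 and 0.0222, permutation test). Without libraries 4 and 10 these were 0.22 and 0.55.

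Markers of other tissues of the eye moved with the members to different degrees. The summed level of 10 genes of the choroidal and scleral stroma ran from 92.9 over a median of 239 to 1373 normalized counts, and 0 of the 10 had a mean of 0. It had a Spearman's rho of 0.91 and a Pearson's r of 0.92 with the melanin score (adjusted p = 0.00052 for both, permutation test). With the retinoid score rho was 0.81 (adjusted p = 0.00277, permutation test) and r was 0.82 (adjusted p = 0.00052). Of the 7 genes with a mean of at least 10, 4 (Col1a1, Col1a2, Fmod and Fbln1) had a rho of at least 0.8 with the melanin score. Fbln1, the matrix protein fibulin 1, ran from 8.09 over 94.8 to 556 normalized counts.

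Smooth muscle and pericyte genes were summed over 7 genes, with Myh11 and Pdgfrb at 0, each of which has several transcript rows. The sum ran from 324 over a median of 374 to 599 normalized counts. It had a rho of 0.88 with the melanin score and 0.65 with the retinoid score (adjusted p = 0.00052 and 0.0312, permutation test). Pearson's r was 0.86 and 0.60. Of the 5 genes with a mean of at least 10, 0 had a rho of at least 0.8 with either score. Their median rho was 0.34 with the melanin score and 0.27 with the retinoid score. Tagln and Acta2 had 0.79 and 0.75 with the melanin score, and Rgs5, the most abundant, had 0.08. The ciliary body and iris epithelium list had 10 genes, 0 of them at 0, and a sum from 637 over a median of 943 to 1391, with a rho of 0.67 to the melanin score and 0.64 to the retinoid score (adjusted p = 0.03 and 0.0334, permutation test) and an r of 0.69 and 0.63. Without the 2 libraries farthest from the median score, r lay between 0.60 and 0.89 for these 3 lists and both scores. The part of these tissues in the spread of the members was not tested.

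For the remaining lists no relation passed an adjusted p-value of 0.05. Lens genes had a rho of 0.12 with the melanin score and of 0.45 with the retinoid score (adjusted p = 0.723 and 0.195, permutation test), with an r of 0.17 and 0.57. Without libraries 2 and 8 the relation of the lens genes to the retinoid score had an r of 0.15. Rod genes had a rho of -0.49 with the melanin score and of -0.39 with the retinoid score (adjusted p = 0.171 and 0.290, permutation test). In the same order, rho was -0.21 and -0.24 for endothelial genes, 0.32 and 0.33 for microglial genes, 0.31 and 0.05 for striated muscle genes, 0.21 and 0.26 for Müller glia genes, and 0.24 and 0.27 for red blood cell genes. Single genes could differ from their list. The endothelial gene Plvap had 0.79 and 0.66, while the abundant Kdr had -0.19 and -0.21 and the median over the list was 0.24 and 0.11. The Müller glia genes Vim and Apoe had 0.65 and 0.73 with the melanin score and 0.75 and 0.74 with the retinoid score. The medians over that list were -0.15 and -0.09. A p-value above the threshold does not show that these lists were unrelated to the members.

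In the deposited DESeq2 comparison, 5.62% of all tested genes passed the threshold. The stroma list had 0 of 4 tested genes past it and a median log2 fold-change of -0.25. The smooth muscle and pericyte list had 0 of 2 and a median of 0.17, and the lens list had 0 of 8 and a median of -1.17. For 7 of the 9 lens genes the deposited mean is lower than that of the counts by more than 0.1%, at 898 against 4529 for Cryaa, so the deposited fold-changes of these genes do not rest on all counts as given in the count table. The same holds for 1 stroma gene, Col1a1, 1 smooth muscle gene, Des, and 5 of the 6 striated muscle genes. In the stroma, smooth muscle and lens lists 0 genes had an unadjusted p-value under 0.05. In the ciliary body and iris list 1 of 5 tested genes passed (2.68% of all tested genes rose), the water channel gene Aqp1, which is also expressed outside these tissues. Aqp1 rose with a log2 fold-change of 0.51 (interval 0.38 to 0.64, adjusted p = 1.69e-11, deposited DESeq2 comparison), and its rho with the retinoid and melanin scores was 0.14 and 0.27 over libraries. Of the other lists, 1 of 10 rod genes (Pde6b) and 2 of 7 Müller glia genes (Kcnj10 and Dkk3) fell, where 2.94% of all tested genes did. The endothelial list had 0 of 9 (1 with an unadjusted p-value under 0.05) and the microglial list 0 of 5 (0 unadjusted), while no gene of the striated muscle and red blood cell lists was tested.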

How the data were processed

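RNA was measured in right-eye retinas of 8 spaceflight and 8 ground control mice. Per the processing notes, the authors used Trimmomatic for trimming, TopHat2 for mapping to an earlier mouse assembly than the one of the promoter sequences, HTSeq for counting per transcript, and DESeq2 1.22.2 in R 3.5.1 for the comparison of the groups. The deposited table holds, for each gene, a signal value that the authors made by averaging counts over size factors, a log2 fold-change with its standard error, a score (the Wald statistic) and unadjusted and adjusted p-values. The raw counts per library were deposited by the authors in 16 columns that match no label. They were placed in no group, no test between groups was run on them, and a second count table and the table of called genes were not used.

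Size factors were computed here as medians of ratios over genes, with the row of the highest mean for a symbol with several rows, and rows of unassigned reads left out (59.4% to 67.4% of all reads, multiply mapped ones included). The means so obtained were within 0.0120% of the deposited ones for all 10 members. Library totals of 5331518 to 8568052 set the counting error, and reads without molecular identifiers are not independent molecules. Genes under an adjusted p-value of 0.1 were taken as changed, and 95% intervals were computed from the deposited errors. Correlations used log2(normalized count + 1), a minimum mean of 10 and 100000 permutations with random seed 1. The permutation and ranking steps were tested on simulated data. The alternatives were adjusted p-values under 0.05 and 0.01, an adjustment that also took in the genes under the abundance filter (19668 in all), scaling by the total count or by the trimmed mean of M values, pseudocounts of 0.5 and 5, the inclusion of Best1 and fewer libraries.

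The members and the 12 lists of pathway and marker genes were chosen with earlier results of these data known. Named are all members, from each list the genes past the threshold and up to 3 of the most abundant, and the 10 genes most like the set. Other genes, such as those with a rho of at least 0.8, were named after their values were seen. The computations were made in Python 3.11.15 (pandas 2.3.3, numpy 2.4.6, matplotlib 3.10.9, scipy 1.17.1).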

Additional observations from a re-analysis of the deposited data

How the results depend on the processing

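The number of members past the threshold was 0 at adjusted p-values of 0.1, 0.05 and 0.01 and with the adjustment over all 19668 genes. Of the 2 pathway genes past it, Krt18 and Cst3, 1 was left at 0.05, 1 at 0.01 and 1 with the adjustment over all genes, in each case Cst3, since Krt18 had 0.0736 as deposited and 0.129 over all genes. The median pairwise rho lay between 0.82 and 0.85 in all 7 alternatives, the 1 without library 2 having been added after seeing the data. Scaling by total count or by the trimmed mean of M values left the 18 recomputed coefficients of variation near their main values. By total count, that of Ttr went from 69.1% to 67.9% and that of Mlana from 126.4% to 126.3%. No paired analysis was possible because the count columns carry no sample label, so the replicate numbers of the labels cannot be joined to them, and for the same reason no fit without a library could be made. Best1, at a mean normalized count of 2.72, is below the depth at which the deposited comparison gives an adjusted p-value.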

Other observations

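A rho of -0.8 or lower with the mean score of the 9 members was found for 2 of 12414 genes, which were chosen after their values were seen. Nt5e, the ecto-5′-nucleotidase CD73 of rods, had a rho of -0.83 and ran from 864 over a median of 1022 to 1107 normalized counts. Cdc123 had a rho of -0.80 and ran from 686 over 719 to 794. Their adjusted p-values in the deposited DESeq2 comparison were 0.895 and 0.941. The range of both genes over libraries was far narrower than that of the members.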
